A study of Drosophila melanogaster with 18 samples.

Results

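A set of 87 genes had ratios of 1 sign in one dye-flip pair of hybridisations and of the opposite sign in another, in a Drosophila melanogaster diet comparison. The genes were taken from 4574 genes with a single symbol on a 2-colour spotted array, of which 4116 had values on the 4 slides that define the set and lay outside the cuticle, heat shock, P450 and related families left out of it. The study compared total RNA of animals switched to banana with total RNA of controls on a cornmeal diet, and each slide carried both RNAs, one per channel. Slides 2, 28 and 30 had the banana RNA in channel 1, and slides 3, 25 and 29 had the cornmeal RNA there. The labels join slide 2 with slide 3, slide 28 with slide 25, and slide 29 with slide 30 as dye flips, in which the same comparison is repeated with the channels exchanged. Each slide held 3 sets of replicate spots, giving 18 columns of ratios. The labels give no stage, sex, tissue, strain or age, and do not say whether the 3 flip pairs came from separate cultures.

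The deposited values are log ratios, taken here as log2, and the labels do not say which channel was divided by which. Ratios of slides 3, 25 and 29 were multiplied by -1, so that all 6 slides run the same way. Read as channel 1 divided by channel 2, a positive ratio is a banana excess. Read the other way round, it is a cornmeal excess, and every direction given here is open in this sense. Because the samples are bulk RNA, fewer cells of a type and less RNA per cell cannot be told apart. Channel intensities were not used here, so how far a spot lay above background is unknown. With 6 slides, precision is limited by their number.

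A gene entered the set if it had one sign on slides 2 and 3, the other sign on slides 28 and 25, and a difference of at least 1.5 on the log2 scale between the means of these slide pairs. The genes were thus chosen by their measured ratios on slides 2, 3, 28 and 25, which are given as a description without a test. Slides 29 and 30 played no part in the choice. Of the 87 genes, 73 were positive on slides 2 and 3 and negative on slides 28 and 25, which is 1.77% of the eligible genes, and 14 had the reverse order, which is 0.34%. Opposite signs without regard to size were found for 587 eligible genes, or 14.3%. The symbol of 86 of the 87 genes was found in the RefSeq gene table of Release 6, all as protein-coding genes, and 42 of the 87 carry only a CG number.

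The cuticle that covers an insect is rebuilt at every moult, when epidermal cells secrete chitin and a matrix of zona pellucida (ZP) domain and cuticle proteins and then shed the old layer. The steroid hormone ecdysone times this cycle by binding a receptor made of EcR and Usp, and transcripts of cuticle and matrix genes are made in short bursts around a moult. The genes mey, neo, kkv and usp of this machinery are among the 87.

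**Figure D1:**
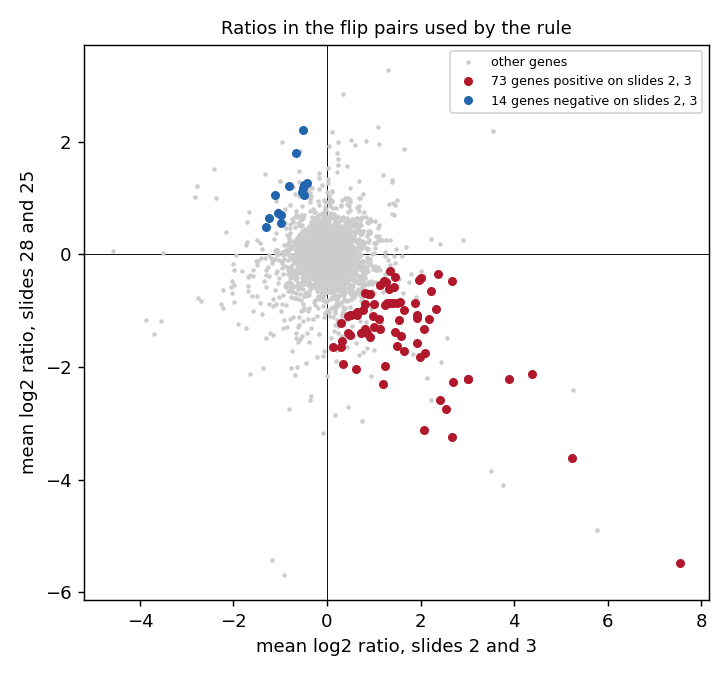
Mean log2 ratio of slides 2 and 3 (horizontal axis) against that of slides 28 and 25 (vertical axis) for each gene with values on all 4 slides. The 73 genes in red lie at lower right and the 14 genes in blue at upper left, as the rule requires, and CG9083 lies farthest out at 7.55 and -5.48.

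The 73 genes that were positive on slides 2 and 3 had differences of 1.51 to 13.03 between the slide pairs, with a median of 2.38. The difference was at least 3 in 25 of them and at least 4 in 11. The 14 genes of the reverse order spanned 1.54 to 2.73 in size, with a median of 1.76, and none of these 14 reached 3. All 4 slides exceeded 1 in size for 17 of the 73 genes and for 0 of the 14. In 15 of the 73 and in 3 of the 14 genes at least 1 of the 4 slides lay within 0.2 of zero, so that the sign on that slide is weakly set.

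CG9083 differed most between the slide pairs. It stood at 7.99 and 7.11 on slides 2 and 3, at -5.53 and -5.44 on slides 28 and 25, and at 2.12 and 1.57 on slides 29 and 30. All of its 10 spots on the first 4 slides carried the sign of their slide, between 7.10 and 8.53 on slides 2 and 3 and between -6.27 and -4.90 on slides 28 and 25. The rule requires 1 sign within slides 2 and 3 and within slides 28 and 25. On slides 29 and 30, which the rule did not use, CG9083 also had 1 sign and lay between the other pairs.

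CG3108, a predicted carboxypeptidase gene, stood at 4.45 and 6.0 on slides 2 and 3, at -3.41 and -3.83 on slides 28 and 25, and at 1.35 and 0.25 on slides 29 and 30. CG30427, a predicted fatty acyl-CoA reductase gene of wax and long-chain alcohol synthesis, had 2.58 and 6.20 on slides 2 and 3, -2.52 and -1.73 on slides 28 and 25, and 4.29 and 4.51 on slides 29 and 30. CG3108 thus lay near the middle on slides 29 and 30, whereas CG30427 there matched the mean of 4.39 of slides 2 and 3. That mean averages unlike slides, and the spots of CG30427 on slide 3 ran between 4.42 and 9.02. The mechanosensory gene stum rested on 6 spots in all, with 2.21 and 5.59 on slides 2 and 3 and -2.12 and -2.32 on slides 28 and 25, and it had no value on slides 29 and 30. Its spots on slide 25 spread between -4.53 and -0.12.

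CG7080, whose function is not annotated in the sources used here, had 2.0 and 3.08 on slides 2 and 3, -3.51 and -2.0 on slides 28 and 25, and 2.75 and 2.14 on slides 29 and 30. A gene named for a lethal allele, with Entrez identifier 46066, had 1.92 and 2.90 on slides 2 and 3, -2.83 and -2.32 on slides 28 and 25, and 2.50 and 1.19 on slides 29 and 30. For both genes slides 29 and 30 overlapped slides 2 and 3 and stood apart from slides 28 and 25. CG17672 went the other way on slides 29 and 30, at -0.49 and -2.06, beside 3.12 and 2.22 on slides 2 and 3 and -4.21 and -2.27 on slides 28 and 25. CG4702 did likewise, with -0.31 and -1.31 on slides 29 and 30, 3.71 and 2.34 on slides 2 and 3, and -1.71 and -2.74 on slides 28 and 25. The predicted gene CG11409 had 1.51 and 2.70 on slides 2 and 3, -1.41 and -2.11 on slides 28 and 25, and 1.12 and 0.98 on slides 29 and 30, and so kept the sign of slides 2 and 3.

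**Figure D2:**
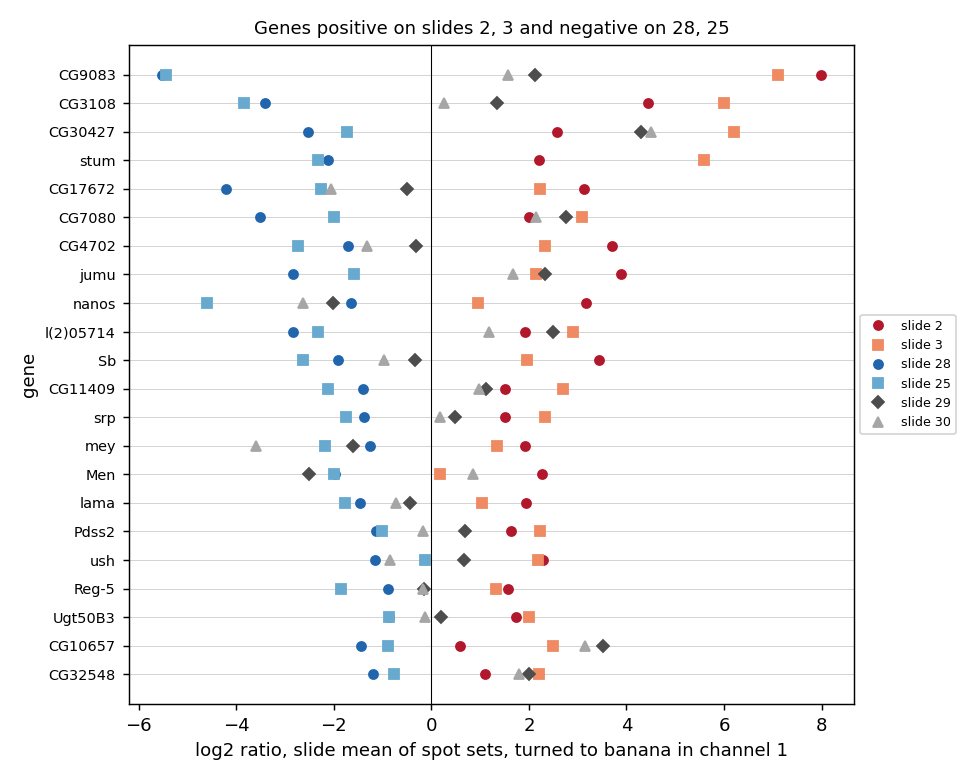
Slide means of the log2 ratio (horizontal axis) for the 22 named genes that were positive on slides 2 and 3, ordered by their difference. Red and orange points are slides 2 and 3, blue points slides 28 and 25, and grey points slides 29 and 30, which lie near slides 2 and 3 for CG30427, CG7080 and jumu and near slides 28 and 25 for nanos and mey.

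The forkhead factor gene jumu had 3.89 and 2.15 on slides 2 and 3, -2.83 and -1.59 on slides 28 and 25, and 2.34 and 1.68 on slides 29 and 30. One spot of jumu on slide 3 disagreed with its slide, at -2.08, while the other spots of that slide reached up to 4.59. The GATA factor gene srp, which directs blood cell and fat body development, had 1.52 and 2.32 on slides 2 and 3, -1.38 and -1.75 on slides 28 and 25, and 0.48 and 0.18 on slides 29 and 30. Its 12 spots on the first 4 slides all carried the sign of their slide. The gene ush, which encodes a cofactor of GATA factors, had 2.29 and 2.18 on slides 2 and 3, -1.16 and -0.13 on slides 28 and 25, and 0.66 and -0.85 on slides 29 and 30. The last values differ in sign, and slide 25 lay close to zero.

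The Stubble gene Sb, which encodes a transmembrane serine protease required for leg, wing and bristle shape, had 3.44 and 1.97 on slides 2 and 3, -1.92 and -2.63 on slides 28 and 25, and -0.34 and -0.97 on slides 29 and 30. Of the ZP-domain genes, which shape the apical surface of epidermal cells, mey had 1.93 and 1.35 on slides 2 and 3, -1.26 and -2.17 on slides 28 and 25, and -1.61 and -3.60 on slides 29 and 30. The related gene neo had 2.05 and 0.95 on slides 2 and 3, -0.10 and -1.61 on slides 28 and 25, and -1.51 and -1.86 on slides 29 and 30. On slides 29 and 30 all 3 of these genes had the sign of slides 28 and 25, and the means of mey and neo were below those of either other pair. The chitin synthase gene kkv was positive on slides 29 and 30, at 1.09 and 0.60, beside 1.62 and 2.31 on slides 2 and 3 and -0.56 and -0.36 on slides 28 and 25. The gene usp, which encodes the partner of the ecdysone receptor, had 2.03 and 1.99 on slides 2 and 3, -0.78 and -0.06 on slides 28 and 25, and 1.16 and -0.69 on slides 29 and 30. Its sign on slide 25 was thus weakly set, and the slides of the remaining pair disagreed.

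Most genes on the lists that hold these members did not meet the rule. Of 6 measured genes of the ZP-domain and apical matrix list 2 met the rule, of 7 chitin synthesis genes 1, of 8 ecdysone response regulators 1, and of 6 haemocyte markers 1, which was srp, against 2.11% of all eligible genes. The median difference between the slide pairs was 1.41 for the apical matrix list, 0.23 for chitin synthesis, 0.06 for ecdysone regulators and 0.34 for haemocyte markers, against -0.03 over all genes. These counts and medians use the slides that chose the genes, and each of these lists holds at least 1 of the 87. They are a description and were not tested. Other haemocyte markers stayed near zero, such as Pxn at 0.06 on slides 2 and 3 and -0.30 on slides 28 and 25. The other 16 lists with a measured gene held 0 of the 87 genes, and the 13 of them with at least 4 measured genes had median differences of -0.60 to 0.08. Among the smaller lists, glue and ecdysone-induced secretion had a median difference of 3.79 from 2 genes. Ecdysone synthesis had 0.9 from 1 gene, and eclosion hormones had -0.1 from 2. The glue list includes ImpE2, at 3.76 on slides 2 and 3 and -4.09 on slides 28 and 25, which the rule leaves out by name. The 13 lists include markers of muscle, midgut, fat body, nervous system and testis. Lists were matched by symbol and hold some genes that do not belong there. Examples are Cp110 and Cp190 in the ovary and chorion list, LysRS in the lysozyme list and trn in the apical matrix list.

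The gene nanos, a translational repressor of the germ line and of posterior patterning, had 3.18 and 0.96 on slides 2 and 3, -1.64 and -4.60 on slides 28 and 25, and -2.01 and -2.63 on slides 29 and 30. The malic enzyme gene Men, which supplies reducing power for lipid synthesis, had 2.27 and 0.18 on slides 2 and 3 and -1.97 and -2.0 on slides 28 and 25, from 4 spots in all, and -2.50 and 0.86 on slides 29 and 30. Men therefore rests on few spots and its slides disagree in size. Pdss2, a prenyl diphosphate synthase subunit gene of ubiquinone synthesis, had 1.64 and 2.22 on slides 2 and 3, -1.14 and -1.02 on slides 28 and 25, and 0.69 and -0.18 on slides 29 and 30. The UDP-glycosyltransferase gene Ugt50B3 had 1.74 and 2.01 on slides 2 and 3, -0.86 on each of slides 28 and 25, and 0.19 and -0.14 on slides 29 and 30. Slides of a pair differed little for Pdss2 and Ugt50B3 in the pairs that chose them, while on slides 29 and 30 both genes had a different sign on each slide and Ugt50B3 lay near zero.

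Of the remaining named genes, lama had 1.94 and 1.04 on slides 2 and 3, -1.46 and -1.78 on slides 28 and 25, and -0.43 and -0.73 on slides 29 and 30. The rhythmically expressed gene Reg-5 had 1.57 and 1.32 on slides 2 and 3, -0.89 and -1.85 on slides 28 and 25, and -0.16 and -0.17 on slides 29 and 30. Both were by their slide means on the side of slides 28 and 25 in the remaining pair, Reg-5 close to zero. The spots of lama ran between -1.06 and 0.77 on slide 29 and between -2.46 and 0.8 on slide 30. Slide 2 of lama was 1 spot. CG10657, a predicted lipid-binding CRAL-TRIO domain gene, had 0.58 and 2.50 on slides 2 and 3, -1.44 and -0.88 on slides 28 and 25, and 3.51 and 3.15 on slides 29 and 30. CG32548 had 1.09 and 2.20 on slides 2 and 3, -1.20 and -0.76 on slides 28 and 25, and 2.01 and 1.80 on slides 29 and 30. Slides 29 and 30 were higher than slides 2 and 3 for CG10657 and within their range for CG32548. Smaller differences were found for genes of cell division and chromatin, singled out after their values were seen. These comprised mars, a spindle protein gene (difference 2.15), mud, a spindle orientation gene (1.88), chif, a replication kinase regulator gene (1.78), and mor, a chromatin remodelling subunit gene (1.56). Of the spots with a value, 11 of 11 carried the sign of their slide for mars, 6 of 10 for mud, 8 of 12 for chif and 8 of 11 for mor. The value of chif on slide 25 rests on a probe with 1 of 18 values, at -5.81. Its complete probe had 0.19 on slide 25 and so did not meet the sign rule. Besides CG11771, the probes also disagreed for CG12236, CG8677, Pld and kermit, whose values average unlike probes.

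The 14 genes that were negative on slides 2 and 3 had smaller differences. All spots with a value carried the sign of their slide in 1 of these 14 genes, and in 35 of the 73. Genes with missing spots are among these. All 12 spots had a value and that sign in 0 of the 14 and in 22 of the 73. CG7365 differed most, with -0.56 and -0.49 on slides 2 and 3, 2.07 and 2.34 on slides 28 and 25, and -1.06 and -0.33 on slides 29 and 30. CG4174 had -0.62 and -0.72 on slides 2 and 3 and 2.51 and 1.09 on slides 28 and 25, with -0.83 on slide 29 and no value on slide 30. CG4174 had 1 spot on slide 28, and its spots on slide 25 ran between -1.17 and 3.34. Slides 28 and 25 carried most of the difference for CG7365 and CG4174. CG42335, of the aminopeptidase family, had -0.78 and -1.45 on slides 2 and 3, 1.02 and 1.10 on slides 28 and 25, and -1.18 and -1.46 on slides 29 and 30. The gene hll, an acyl-CoA synthetase gene, had -0.74 and -1.34 on slides 2 and 3, 0.19 and 1.28 on slides 28 and 25, and -1.81 and -0.95 on slides 29 and 30. CG5687, a predicted transporter gene, had -1.10 and -1.50 on slides 2 and 3, 0.64 and 0.32 on slides 28 and 25, and -0.29 and -0.49 on slides 29 and 30. Its spots ran between -2.46 and -0.33 on slide 2 and between -3.74 and -0.01 on slide 3, and with the median of the spot sets its difference was -1.13 in place of -1.78, below the threshold of the rule. CG42335, hll and CG5687 shared the sign of slides 2 and 3 in the remaining pair.

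Others of the 14 shared the sign of slides 28 and 25 on slides 29 and 30. Vlet had -1.33 and -0.32 on slides 2 and 3, 0.88 and 1.55 on slides 28 and 25, and 2.71 and 2.10 on slides 29 and 30. The histone kinase gene ball had -0.81 and -0.03 on slides 2 and 3, 1.21 and 1.31 on slides 28 and 25, and 0.79 and 0.78 on slides 29 and 30. The radial spoke gene Rsph4a, of motile cilia, had -0.14 and -1.84 on slides 2 and 3, 0.97 and 0.40 on slides 28 and 25, and 2.00 and 1.02 on slides 29 and 30. The negative sign of ball and of Rsph4a each rested on 1 slide. Slide 3 of ball and slide 2 of Rsph4a lay near zero. Rsph4a also had only 1 spot on each of slides 3, 29 and 30. On the first 4 slides 6 of its 8 spots carried the sign of their slide. CG31555, CG7916 and CG30350 averaged -0.50, -0.51 and -1.25 on slides 2 and 3, 1.23, 1.17 and 0.64 on slides 28 and 25, and 0.86, 1.05 and 0.73 on slides 29 and 30. CG30350 had 1 spot on each of slides 3 and 30, and its spots on slide 29 were -1.28 and 2.74. CG11771 combined probes that disagreed. One of its probes, with 8 of 18 values, had 4.0 on slide 28 and the other -0.20, and with probes that had both slides of a pair its difference was -0.60 in place of -1.65. It was -0.44 with the complete probe alone, and -2.58 to -0.72 without spot set 2 or 3. CG32564, near the threshold, had -0.22 and -0.77 on slides 2 and 3, 1.26 and 0.85 on slides 28 and 25, and -1.96 and -2.51 on slides 29 and 30.

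**Figure D3:**
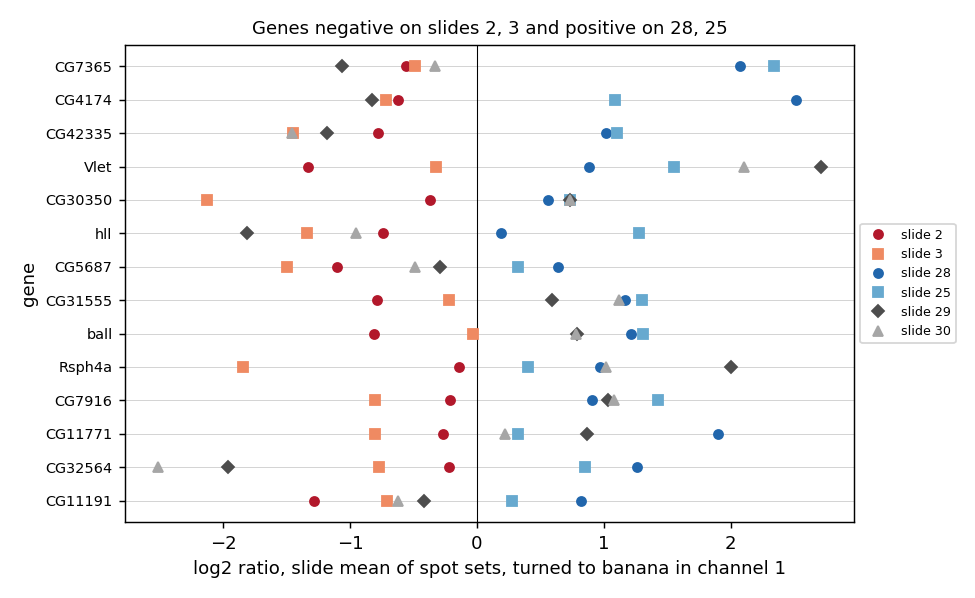
Slide means of the log2 ratio (horizontal axis) for the 14 genes that were negative on slides 2 and 3, ordered by their difference. Red and orange points are slides 2 and 3, blue points slides 28 and 25, and grey points slides 29 and 30. The grey points fall on the positive side for Vlet and Rsph4a and on the negative side for CG32564 and CG42335. For Rsph4a each grey point is 1 spot.

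At the threshold, ken and CG32369 were just inside with a difference of 1.51 each, and sei and hui just outside with 1.49 and 1.43. On the reverse side CG11191 and CG32564 were inside at -1.54 and -1.55, and uzip and CG33143 outside at -1.38 each.

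Slides 29 and 30 gave a measure that did not enter the choice, and there the 87 genes differed from other genes in size more than in direction. Of the 70 genes positive on slides 2 and 3 with values on both slides 29 and 30, 23 were positive on both, 20 were negative on both and 27 had 1 sign on each. The shares of 32.9% and 28.6% lie near the 28.5% and 26.6% found for all eligible genes. Of the 13 genes of the reverse order, 7 were positive on both and 6 negative on both. Among the 11 genes with the largest positive differences 6 were positive on both slides, 4 were negative on both and stum had no value, so that both signs occurred among the largest differences. The mean of slides 29 and 30 was at least 1 in size in 21 of the 70 genes, or 30.0%, and in 6 of the 13, or 46.2%, against 4.14% of the eligible genes outside the set. The median size was 0.534 and 0.856 in the 2 directions, against 0.189 in those other genes. The median gap between slides 29 and 30 was also wider, at 0.59 and 0.523 in the 2 directions, against 0.325 in those other genes. The larger size thus came with a larger disagreement between the slides.

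**Figure D4:**
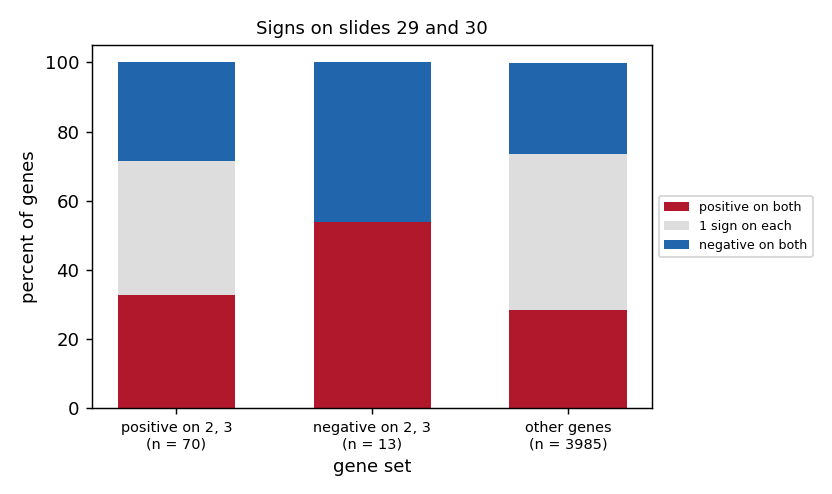
Percent of genes (vertical axis) that were positive on both, of 1 sign on each, or negative on both of slides 29 and 30, for the 70 genes positive on slides 2 and 3, the 13 negative there and 3985 other eligible genes. The 70 genes have shares of 32.9%, 38.6% and 28.6%, close to 28.3%, 45.1% and 26.5% in the other genes, and the 13 genes have none with 1 sign on each.

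The ratio on slides 29 and 30 was tested against 0 with limma over all 4911 genes and unnamed probes with values on both slides. These are 2 hybridisations of 1 flip pair, so the test measures hybridisation noise and not the spread between animals. In this test 12 rows passed an adjusted p of 0.05, or 0.244%, all with positive ratios, and 2 of the 83 set members tested were among them. CG30427 had a ratio of 4.40 ± 0.205 (SE, n = 2 slides, limma adjusted p = 0.0276) and CG10657 a ratio of 3.33 ± 0.217 (SE, n = 2 slides, limma adjusted p = 0.0462). Both were positive on all 4 slides of the pairs 2 and 3, and 29 and 30. Before adjustment 37 of the 83 had a limma p under 0.05, or 44.6%, against 10.9% of all rows. Of these 37 genes 22 had positive ratios on slides 29 and 30, beside 5.25% of all rows, and 15 had negative ratios, beside 5.68%.

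The number of calls differed with the treatment of missing spots. Only 42 of the 87 genes, or 48.3%, had a probe with all 18 values, against 78.1% of eligible genes, and the rule was met by 1.31% of the genes with all 18 values and by 5.0% of those with fewer. In the limma fit restricted to rows with all 18 values, 264 of 3742 rows passed the adjusted threshold, or 7.06%, and 22 of the 42 set members did, of which 14 were positive and 8 negative. These included jumu at 2.01 (limma adjusted p = 1.06e-08), the gene with Entrez identifier 46066 at 1.84 (4.06e-07) and kkv at 0.84 (0.011) on the positive side. On the negative side they included mey at -2.61 (limma adjusted p = 2.51e-09), neo at -1.69 (3.27e-07) and CG17672 at -1.27 (0.000541). With the same ratios from the same 2 slides, the limma fit over all 4911 rows called none of these genes. Its limma adjusted p was 0.11 for jumu and neo, 0.237 for mey, 0.345 for kkv and 0.431 for CG17672. The p-values of the restricted fit are thus not strong evidence for any 1 gene. With the median of the spot sets in place of the mean, 0 rows passed limma's adjusted threshold and 36 set members had an unadjusted p under 0.05. CG30427 then had 4.33. Leaving out spot set 2 also left 0 calls, with CG30427 at 4.35 and 32 set members under an unadjusted limma p of 0.05. The matching shares of all rows under these settings are not given here, so the counts of 36 and 32 have no background beside them. CG10657 lost its call with the median, at 3.26, and without any 1 of the 3 spot sets, at 3.22 to 3.41.

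**Figure D5:**
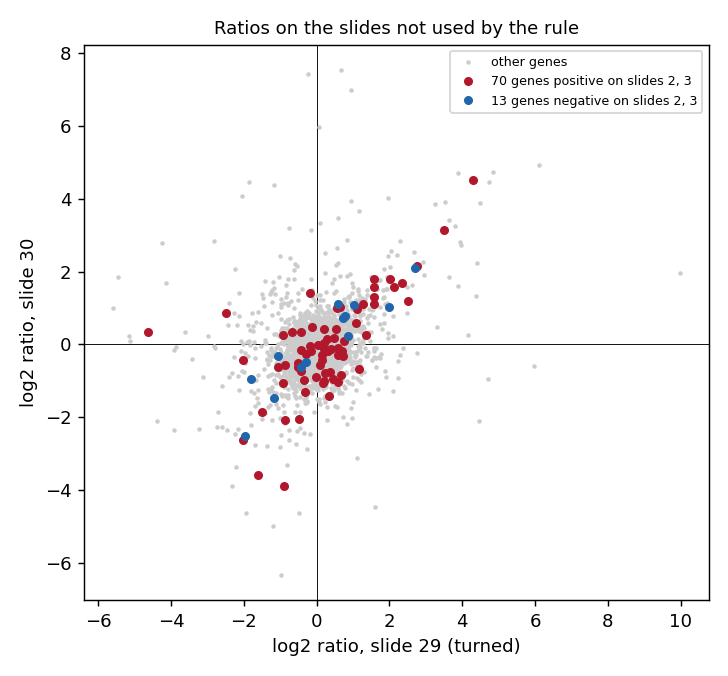
Log2 ratio on slide 29, turned (horizontal axis), against slide 30 (vertical axis) for each gene with values on both. The 70 red and 13 blue genes spread along the diagonal on either side of zero, with CG30427 at 4.29 and 4.51 and CG10657 at 3.51 and 3.15 at upper right and mey at -1.61 and -3.60 at lower left.

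The mean ratio over the 3 flip pairs uses the slides that chose the genes, and opposite signs with a wide gap between 2 of the 3 pairs give a large spread, so the members' counts follow from the rule and nothing is read from them. The limma test of the 3 pair means against 0 called 0 of 4723 rows at an adjusted p of 0.05, or 0%, and 380 rows, or 8.05%, before adjustment, with 0 of 83 set members at either. With the 6 slides fitted singly and the flip pair as a random block, limma called 20 rows, or 0.423%, and 0 set members. CG9083 averaged 1.30 over the pairs and Sb -0.07.

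The same rule applied to the other pairings of flip pairs gave fewer genes. It was met by 59 genes between slides 2, 3 and slides 29, 30, of which 33 were higher on slides 2 and 3 and 26 on slides 29 and 30. Between slides 29, 30 and slides 28, 25 it was met by 58 genes, of which 42 were higher on slides 29 and 30 and 16 on slides 28 and 25. These comparisons share slides with the choice of the 87 genes, 19 and 22 of which met the rule there too. Of the 76 measured genes in the families left out, 15 met the rule, 13 of them positive on slides 2 and 3, led by TwdlF, ImpE2 and Osi14 with differences of 10.67, 7.85 and 7.66.

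The dye flips of the pairs that chose the genes were weakly correlated over the array. After turning, slides 2 and 3 had a Pearson correlation across probes of 0.009 and a Spearman correlation of 0.117. Slides 28 and 25 had 0.020 and, by rank, -0.119, and slides 29 and 30 had 0.317 and, by rank, 0.221. These are correlations across probes, which are not independent replicates. Of 110 genes beyond 1.5 in size on both slides 2 and 3, 56 had the same sign after turning. The corresponding counts were 48 of 80 for slides 28 and 25 and 67 of 76 for slides 29 and 30. If the deposited values of slides 3 and 25 had been turned already, 47 other genes would meet the rule, since turning fixes that none of the 87 can. Slides with the same RNA in channel 1 had Pearson correlations of -0.071 to 0.281 and Spearman correlations of -0.069 to 0.463 over 5193 to 5248 shared probes. The median gap between slides 2 and 3 was 0.795 in the 73 genes and 0.582 in the 14, against 0.326 in other eligible genes. Between slides 28 and 25 it was 0.558 in the 73 genes and 0.466 in the 14, against 0.495 in other eligible genes. Signs and sizes on these slides chose the genes, which bears on the gaps, so they are a description and were not tested.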

How the data were processed

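The deposited table holds log ratios, taken as log2, of 5620 probes in 18 columns. How the authors made these log2 values (scanning, background, normalisation, dyes, log base) is not stated by any label or file header. Values ranged from -16.02 to 13.21, and 4860 to 5149 probes had a value in a column. A single gene was listed for 4955 probes, by the platform annotation.

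Spots were averaged over the 3 sets, slide medians were subtracted, slides with cornmeal RNA in channel 1 were turned, and probes of 1 gene were averaged (Python 3.11.15). The members and lists were chosen with earlier results of these data known. Named genes were, per direction, the 12 with the largest difference, up to 8 further genes with a symbol other than CG and a number, up to 4 with the smallest p on slides 29 and 30, and 2 genes each side of the threshold. Other members were named because they are in a list, or are marked as chosen afterwards.

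Slides 29 and 30, and the 3 pair means, were tested against 0 with limma 3.58.1 (lmFit, eBayes, two-sided, Benjamini-Hochberg, threshold 0.05). These p-values cover only slide or pair spread, which may be technical. Spot sets are not replicates. On simulated data for slides 29 and 30 (4911 rows), 1 of 100 changes of 1 and 77 of 100 changes of 2 passed the adjusted threshold, with 9 unchanged rows. Flip partners come from the labels. Alternatives changed the spot summary, centring, missing spots, threshold, probes and pairs. Figures used matplotlib 3.10.9.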

Additional observations from a re-analysis of the deposited data

How the results depend on the processing

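The 73 and 14 genes became 32 and 7 among genes with all 18 values, 132 and 29 with a threshold of 1, and 4 of the reverse order with a threshold of 2. Without each spot set in turn they numbered 65 to 75 and 18 to 24. Of the 87 genes, 66 of 83, 66 of 82 and 64 of 79 with values still met the rule without spot set 1, 2 and 3, and 70 of 87 with the median of spot sets. With slides 3 and 25 not turned, an alternative chosen after seeing the data, 36 genes were positive on slides 2 and 3. On slides 29 and 30 the 12 calls over all rows and the 2 among set members became 0 and 0 with the median of spot sets, 264 and 22 among genes with all 18 values, 0 to 9 and 0 to 1 without each spot set in turn, and 7 and 1 with spot sets centred before averaging (chosen after seeing the data). With the spread of all 6 slides 14 of 4723 rows were called, 1 of them a set member. Among genes with all 18 values 14 positive-direction members were positive on both slides and 13 negative on both. Over the 3 flip pairs, a replicate block for the flip pair, fitted to the 6 slides, gave 20 calls among all rows (0.423%) and 0 among set members; the correlation between slides of a pair was -0.0895. These set member counts use the slides that chose the genes. Set members with an unadjusted p under 0.05 numbered 0 to 26 when each pair was left out, 26 without slides 2 and 3 and 25 without slides 28 and 25. The matching shares of all rows are not given here. For thresholds of 1 and 2, the rule between slides 2, 3 and 29, 30 gave 136 and 31 genes, and between slides 29, 30 and 28, 25 it gave 104 and 39. Of 254 recomputed differences of the 35 genes named by rule, 0 changed sign and 12 moved by more than the spread between slides. These 254 leave out the setting with slides 3 and 25 not turned, under which 0 of the 87 genes met the rule and some differences change sign. The cause of these changes was not tested.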

Other observations

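Among array elements with no gene or with several genes in the annotation, 13 of 587 with values on the 4 slides met the same rule, 9 positive on slides 2 and 3 and 4 negative. In the order of protein-coding genes in the reference table, CG9083 and CG30427 lie with 2 genes between them and mor and srp with 1. No other members lay within 5 places of each other. These neighbours were looked for after the values were seen.

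Of the 12 rows called on slides 29 and 30, 10 were outside the set. TwdlL, of the Tweedle cuticle family, had the highest ratio, 5.53, with means of -1.32 on slides 2 and 3 and 1.43 on slides 28 and 25. The motor subunit gene Dlic had 4.43 there, with -0.38 on slides 2 and 3 and -0.67 on slides 28 and 25, and the elongase gene bond had 3.52, with -0.77 and -0.34.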
